A study of Saccharomyces cerevisiae with 24 samples.

Results

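Transcripts of 39 nuclear genes for the respiratory chain, ATP synthase and ADP/ATP and phosphate carriers of budding yeast were followed through a heat shock, in RNA isolated by 3 methods. These were 39 of the 6685 transcripts in the table. They comprised 12 subunits of ATP synthase, 9 of complex III, 9 of complex IV, 2 cytochromes c, 3 NADH dehydrogenases and 4 carriers of ADP/ATP or phosphate. Members were chosen by gene name and function, with earlier results of these data known, and all 39 passed the filter on low values. The cells were haploid BY4741, of the S288c background and mating type a, carrying his3∆1 and leu2∆0 together with met15∆0 and ura3∆0, in synthetic complete medium, and every group shared this genotype. Unstressed cells were taken at 30 °C (time 0). Heat-shocked cells were taken 20 min after prewarmed medium had brought the same cultures to 37 °C. From each of 4 cultures, at both times, parallel samples went to hot acid phenol with a column clean-up (Phenol), to a silica column kit (RNeasy) and to a guanidinium-phenol kit (Direct-zol). This gave 6 groups of 4 libraries, 24 in all. The unstressed samples received no added medium, so that heat, dilution into new medium and the elapsed time cannot be told apart.

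Electrons from NADH and succinate enter the inner mitochondrial membrane chain through dehydrogenases, pass by ubiquinone to complex III (the cytochrome bc1 complex), by cytochrome c to complex IV (cytochrome c oxidase) and so to oxygen. Budding yeast has no complex I and oxidises NADH with the single-protein enzymes Ndi1, facing the matrix, and Nde1 and Nde2, facing outward. ATP synthase uses the proton gradient to make ATP, which the ADP/ATP carriers export in exchange for ADP, and Mir1 brings in phosphate. Glucose represses many of these genes in this yeast, and several subunits have an isoform used under aerobic conditions and another used at low oxygen.

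Values are transcript levels in TPM (RSEM's measure per unit of length), a relative share in which depth is not kept, and read totals were not analysed here. Per-library values below are scaled TPM, that is TPM divided by a library factor (0.776 to 1.27) that sets most transcripts level between libraries. Tests were made with limma on log2(scaled TPM + 1), and a transcript was called at a Benjamini-Hochberg false discovery rate (FDR) under 0.01 over the 6137 transcripts tested. Fold changes on this scale understate the change of transcripts near 1 TPM. The deletions in the labels were matched by LEU2, MET17 and URA3, at no more than 0.1 TPM in any library, while HIS3, whose allele is a partial deletion, was detected in all 24. The MATa genes STE2, MFA1 and MFA2 ranged from 109 to 1350 TPM, and the MATalpha genes STE3, MF(ALPHA)1 and MF(ALPHA)2 from 0 to 14.7 TPM. The median SD between cultures was 0.107 to 0.196 on the log2 scale for the 39 transcripts in the 6 groups and 0.107 to 0.158 for all tested. These are whole cultures, so a change in all cells and a change in some of them cannot be told apart.

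After heat shock the transcripts of 8 or 9 of the 9 bc1 complex subunits were higher, CYC7 passed CYC1 as the more abundant cytochrome c transcript, and COX5B, of the low-oxygen form of subunit 5, and the dehydrogenases NDE2 and NDI1 rose. With the scaling used, most subunits of ATP synthase and the main ADP/ATP carrier PET9 were not called. With Phenol, 20 of the 39 transcripts were called higher and 3 lower after heat shock. With RNeasy the counts were 19 and 2, and with Direct-zol 17 and 3. Of all transcripts tested, 31.1% (Phenol), 31.3% (RNeasy) and 31.7% (Direct-zol) were called higher and 32.8%, 32.1% and 32.1% lower. The median log2 change of the 39 was 0.32, 0.29 and 0.29 with the 3 methods, against -0.00, 0.01 and 0.02 for all transcripts. The same 15 transcripts were called higher with every method, 2 lower with every method (CYC1 and ATP5), and 13 in none. Over all tested genes with an annotated start codon, these shares were taken with and without the motif CCAAT, described below. They were 29.4% and 28.4% higher with every method, and 30.3% and 30.7% lower. The scaled values of all 12 heat-shocked libraries lay above those of all 12 unstressed libraries for 8 of the 39, and below them for CYC1 alone, where 17.1% and 17.6% of all transcripts did so.

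In sum of TPM as deposited, the 39 transcripts took 0.584% ± 0.0332 (SD, n = 4) of the total in unstressed Phenol libraries and 0.868% ± 0.0148 after heat shock, 0.579% ± 0.0279 and 0.94% ± 0.0108 with RNeasy, and 0.58% ± 0.0272 and 0.933% ± 0.016 with Direct-zol. ATP synthase was the largest class, at 0.262% to 0.281% by method in unstressed cells and 0.337% to 0.363% after heat shock, followed by complex III at 0.121% to 0.144% and 0.212% to 0.278%. Complex IV went from 0.0858% to 0.1002% before to 0.148% to 0.186% after. The carriers stood at 0.0673% ± 0.00263 before and 0.0762% ± 0.00271 after with Phenol, but at 0.0431% ± 0.00526 and 0.0444% ± 0.0037 with RNeasy. By mean TPM in unstressed cells ATP2 ranked 268 of 6685 and NDE2 5683.

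The size of these counts depended on the scaling. With TPM as deposited the median change of all transcripts was 0.19, 0.26 and 0.29, and 27, 27 and 28 members were called higher against 1 (CYC1) lower with each method. ATP5 and AAC3 then lost their calls. The shares of all transcripts called with TPM as deposited or with other scalings are not given here. When the 6 libraries of 1 culture were left out in turn, 17 to 21 (Phenol), 16 to 22 (RNeasy) and 16 to 20 (Direct-zol) members were called.

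**Figure D1:**
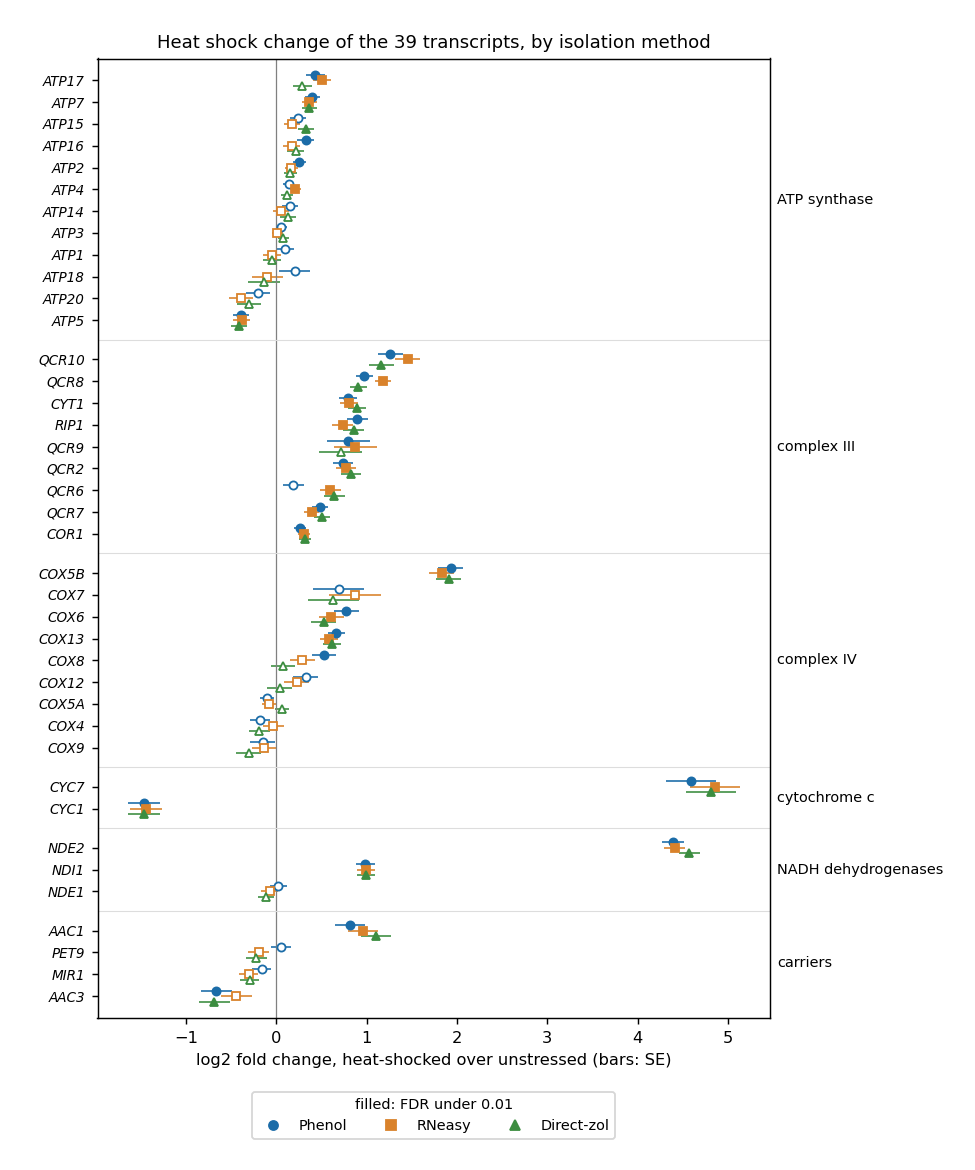
log2 fold change of each of the 39 transcripts after heat shock (x axis) with the SE as a bar, by complex and with 1 marker per isolation method, filled where called at an FDR under 0.01. All 9 complex III transcripts lie above 0, ATP synthase lies close to 0, and CYC7 and NDE2 stand beyond 4 while CYC1 lies below -1.

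Complex III rose most evenly. Of its 9 nuclear subunits 8 were called higher with Phenol, 9 with RNeasy and 8 with Direct-zol, none lower, with medians of 0.79, 0.77 and 0.83. QCR10 (YHR001W-A, chrVIII:107826-108122, plus strand), a small peripheral subunit, rose most. Before heat shock the Phenol libraries measured 119, 111, 78.6 and 85.2 scaled TPM, and after it 225, 263, 235 and 214. The RNeasy libraries measured 83.8, 84.5, 82.1 and 71.3 unstressed and 244, 195, 186 and 271 heat-shocked. For Direct-zol the values were 93.3, 108, 87.4 and 62.2 unstressed and 187, 199.9, 193 and 196 heat-shocked. The heat-shocked values did not overlap the unstressed ones with any method, and the log2 changes were 1.26 ± 0.14, 1.45 ± 0.14 and 1.16 ± 0.14 (limma adjusted p at most 2.8e-07). QCR8 (YJL166W), the subunit next to cytochrome b, came second.

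QCR8 measured 88.0, 103, 92.5 and 117 scaled TPM in unstressed and 190.1, 227, 207 and 166 in heat-shocked Phenol libraries. With RNeasy the values were 77.5, 94.7, 99.6 and 97.1 and then 202, 200.1, 223 and 213. With Direct-zol they were 96.3, 118, 109 and 124 and then 217, 216, 204 and 202. Heat-shocked values were above unstressed values in each of the 12 pairs of samples from 1 culture and method. QCR8 changed by 0.97 ± 0.09, 1.18 ± 0.09 and 0.90 ± 0.09. The Rieske iron-sulfur protein RIP1, cytochrome c1 (CYT1) and the core protein QCR2 rose together at 0.89, 0.73 and 0.85, 0.79, 0.81 and 0.89 and 0.73, 0.77 and 0.83, all called with each method. The other core protein COR1 rose less, by 0.27 ± 0.07, 0.31 ± 0.07 and 0.32 ± 0.07. QCR7 rose by 0.49, 0.39 and 0.51, called with each method. The acidic subunit QCR6, the most abundant of the complex at 274 to 424 scaled TPM unstressed, changed by 0.60 ± 0.12 with RNeasy and 0.64 ± 0.12 with Direct-zol, both called, but by 0.19 ± 0.12 with Phenol (limma adjusted p = 0.162). The tests of those differences between methods were not passed (limma adjusted p = 0.987 and 0.963). QCR9 had the widest spread of the complex and missed the threshold with Direct-zol (0.71 ± 0.24, limma adjusted p = 0.013), and its call with Phenol was lost without culture 1 or without culture 2, as were those of COR1 with Phenol without cultures 1, 3 or 4.

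ATP synthase changed little with the scaling used. Of its 12 subunits 4, 3 and 2 were called higher with Phenol, RNeasy and Direct-zol, and ATP5 was called lower with each. The medians were 0.18, 0.11 and 0.12, and the changes ran from -0.41 (ATP5) to 0.50 (ATP17). ATP2 (YJR121W), the catalytic beta subunit and the most abundant member, ranged over 425 to 988 scaled TPM unstressed and 481 to 1160.1 heat-shocked. These ranges overlap, but they pool the 3 methods, whose levels differed. Mean scaled TPM was 937 before and 1116 after with Phenol, 463 and 518 with RNeasy, and 602 and 669 with Direct-zol. Within 1 culture and method, ATP2 was higher after heat shock in each of the 12 pairs of samples. It was called with Phenol only (0.25 ± 0.07, limma adjusted p = 0.00376), with changes of 0.16 ± 0.07 and 0.16 ± 0.07 with the kits. The Phenol call was lost without culture 3, without culture 4 and with only the compared groups in the fit (limma adjusted p up to 0.0923), and its value was 1.02 with quantile normalization. ATP1, its alpha partner in the catalytic head, changed by 0.09, -0.05 and -0.05 and was called with none. ATP7, of the stator stalk, rose with every method (0.40 ± 0.08, 0.37 ± 0.08 and 0.36 ± 0.08), and ATP17, of the membrane part, with Phenol and RNeasy (0.43 ± 0.10 and 0.50 ± 0.10).

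ATP5 (YDR298C), the oligomycin-sensitivity subunit that joins the stator to the head, was the subunit that fell. In Phenol libraries it measured 340.3, 323, 256 and 266 scaled TPM before and 271, 198, 216 and 218 after heat shock. In RNeasy libraries the unstressed values were 169, 188, 166 and 194 and the heat-shocked values 137, 135, 137 and 138. Direct-zol libraries gave 202, 229, 217 and 194 unstressed and 163, 158, 149 and 160.0 heat-shocked. Only the Phenol values overlapped between the conditions. The changes were -0.39 ± 0.09, -0.39 ± 0.09 and -0.41 ± 0.09 (limma adjusted p 4.2e-04 to 8.4e-04), and the calls were lost without culture 2 or with only the compared groups in the fit (Phenol, adjusted p up to 0.116 over all alternatives), without culture 4 (RNeasy, up to 0.283) and, for all methods, with TPM as deposited. ATP20, of the membrane part, changed by -0.21, -0.39 and -0.31 without a call. With TPM as deposited 9, 8 and 9 of the 12 subunits were called higher. Quantile normalization gave 6, 7 and 8 higher and 1 lower, with medians of 0.29, 0.29 and 0.28, and median-ratio scaling kept 4, 3 and 2 higher. The position of ATP synthase near 0 is thus relative to the bulk of transcripts, and the number of subunits called depended on the scaling.

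Complex IV split by subunit. Of its 9 transcripts 4 were called higher with Phenol and 3 with each kit, none lower, with medians of 0.53, 0.29 and 0.07. COX5B, COX6 and COX13 were called with every method. COX6 changed by 0.78, 0.61 and 0.52 and COX13, a subunit at the surface of the complex, by 0.66 ± 0.10, 0.58 ± 0.10 and 0.62 ± 0.10. The Direct-zol call of COX6 was lost without culture 1, 2 or 4. COX4, COX9 and COX5A were called with none and stayed between -0.31 and 0.06. COX7 showed large estimates with large errors (0.69 ± 0.28, 0.87 ± 0.28 and 0.63 ± 0.28) and passed with none (limma adjusted p 0.0104 to 0.0554).

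COX5A and COX5B encode alternative forms of subunit 5 of cytochrome c oxidase. The first is the aerobic form and the second is known as the form of low oxygen, which gives the enzyme a higher turnover. COX5A (YNL052W, chrXIV:531725-532186, plus strand) did not pass the test with any method. Before heat shock the Phenol libraries measured 142, 138, 138 and 153 scaled TPM, and after it 134, 137, 129 and 132. The RNeasy libraries measured 138, 123, 138 and 112 unstressed and 121, 115, 123 and 120.3 heat-shocked. For Direct-zol the values were 121, 129, 112 and 118 unstressed and 112, 145, 128 and 117 heat-shocked. The conditions overlapped with RNeasy and Direct-zol, while with Phenol the heat-shocked values (129 to 137) lay just below the unstressed ones (138 to 153). The changes were -0.10 ± 0.08, -0.09 ± 0.08 and 0.06 ± 0.08. COX5B (YIL111W, chrIX:155222-155765, plus strand), whose first exon holds 1 coding base before an intron of 88 bases, rose.

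COX5B measured 106, 129, 94.3 and 70.2 scaled TPM in unstressed and 395, 359.5, 395 and 349 in heat-shocked Phenol libraries. With RNeasy the values were 119, 141, 123 and 94.5 and then 449, 427, 395 and 421. With Direct-zol they were 127, 141, 110.4 and 68.5 and then 401, 429.8, 372 and 434. The lowest heat-shocked value, 349, lay above the highest unstressed value, 141. COX5B changed by 1.93 ± 0.14, 1.83 ± 0.14 and 1.91 ± 0.14 (limma adjusted p at most 5.7e-10), which is 3.81-, 3.55- and 3.76-fold. The TPM ratio of COX5B to COX5A was 0.459 to 1.151 in unstressed and 2.63 to 3.71 in heat-shocked libraries. COX5B was the more abundant form in every heat-shocked library, and already in some unstressed ones.

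The cytochromes c moved in opposite directions. CYC1 (YJR048W, chrX:526335-526664, plus strand) encodes iso-1-cytochrome c, the main aerobic form, and CYC7 (YEL039C, chrV:79636-79977, minus strand) iso-2-cytochrome c, a minor form known from low oxygen and stress. CYC1 fell. In Phenol libraries it measured 90.3, 81.5, 90.6 and 75.6 scaled TPM before and 46.6, 31.9, 17.1 and 30.9 after heat shock. In RNeasy libraries the unstressed values were 90.5, 98.9, 91.4 and 83.8 and the heat-shocked values 44.7, 29.1, 22.9 and 38.4. Direct-zol libraries gave 114, 104, 106 and 95.2 unstressed and 38.8, 36.9, 36.0 and 36.8 heat-shocked. All heat-shocked values lay below all unstressed values, with the widest spread in Phenol, where culture 3 was lowest. The changes were -1.47 ± 0.18, -1.45 ± 0.18 and -1.47 ± 0.18 (limma adjusted p at most 3.9e-07), and CYC1 kept its call under every alternative setting tried, with each method.

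CYC7 had the largest log2 changes on the scale used, on which those of NDE2, near 1 TPM, are understated. CYC7 measured 7.83, 23.8, 12.4 and 7.68 scaled TPM in unstressed and 269.7, 307, 368 and 279.5 in heat-shocked Phenol libraries. With RNeasy the values were 15.9, 26.3, 14.5 and 8.04 and then 342, 487, 537 and 499. With Direct-zol they were 11.9, 26.0, 17.0 and 5.36 and then 286, 435, 450.0 and 438. Culture 2 had the highest unstressed value with each method, culture 1 the lowest heat-shocked one. The lowest heat-shocked value (269.7) was above the highest unstressed one (26.3). The log2 changes were 4.59 ± 0.28, 4.85 ± 0.28 and 4.81 ± 0.28 (limma adjusted p at most 1.9e-11), which is 24.1-, 28.9- and 28.1-fold. CYC7 stood at 0.0563 to 0.292 of the TPM of CYC1 before and at 5.78 to 23.5 times it after heat shock. Together both transcripts summed to 71.4 to 127 TPM in unstressed and 289.8 to 689 TPM in heat-shocked libraries.

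Of the NADH dehydrogenases, NDI1 and NDE2 rose and NDE1 did not pass the test. NDE2 (YDL085W, chrIV:303211-304848, plus strand) encodes the minor external enzyme and was the least abundant member in unstressed cells. Before heat shock the Phenol libraries measured 3.65, 2.93, 2.87 and 2.16 scaled TPM, and after it 85.1, 86.3, 80.5 and 69.2. The RNeasy libraries measured 1.56, 2.22, 1.9 and 1.68 unstressed and 54.2, 74.0, 61.7 and 49.1 heat-shocked. For Direct-zol the values were 2.29, 2.65, 1.66 and 0.828 unstressed and 61.3, 84.3, 62.5 and 54.6 heat-shocked. The ranges did not overlap. The changes were 4.39 ± 0.12, 4.41 ± 0.12 and 4.57 ± 0.12 (limma adjusted p at most 2.4e-16). Because the unstressed values lay near the pseudocount of 1, the estimates ran from 3.43 to 4.76 (Phenol), 3.23 to 4.94 (RNeasy) and 3.36 to 5.16 (Direct-zol) over the alternatives, all called.

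NDE1 (YMR145C, chrXIII:554793-556475, minus strand), the major external enzyme, was not called with any method. In Phenol libraries it measured 201, 191, 221 and 169 scaled TPM before and 207, 186, 186 and 213 after heat shock. In RNeasy libraries the unstressed values were 125, 151, 138 and 121 and the heat-shocked values 125, 125, 123 and 134. Direct-zol libraries gave 133, 163, 135 and 138 unstressed and 128, 132, 119 and 143 heat-shocked. Heat-shocked and unstressed values overlapped with each method, and values were higher in Phenol than in the kits at both times. The heat changes were 0.02 ± 0.09, -0.08 ± 0.09 and -0.12 ± 0.09. The TPM ratio of NDE2 to NDE1 went from 0.00599 to 0.0182 in unstressed libraries to 0.326 to 0.637 in heat-shocked ones, and NDE1 remained the more abundant in every library.

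NDI1 (YML120C, chrXIII:28266-29807, minus strand), which feeds matrix NADH into the chain, rose with each method. Before heat shock the Phenol libraries measured 50.2, 60.1, 53.3 and 42.5 scaled TPM, and after it 108, 95.7, 103 and 101. The RNeasy libraries measured 36.7, 54.5, 47.2 and 35.5 unstressed and 77.6, 91.6, 94.3 and 82.1 heat-shocked. For Direct-zol the values were 38.0, 52.0, 45.5 and 34.7 unstressed and 69.6, 99.1, 83.5 and 89.1 heat-shocked. The lowest heat-shocked value, 69.6, exceeded the highest unstressed value, 60.1. NDI1 changed by 0.98 ± 0.10, 0.99 ± 0.10 and 0.99 ± 0.10 (limma adjusted p at most 5.0e-08).

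**Figure D2:**
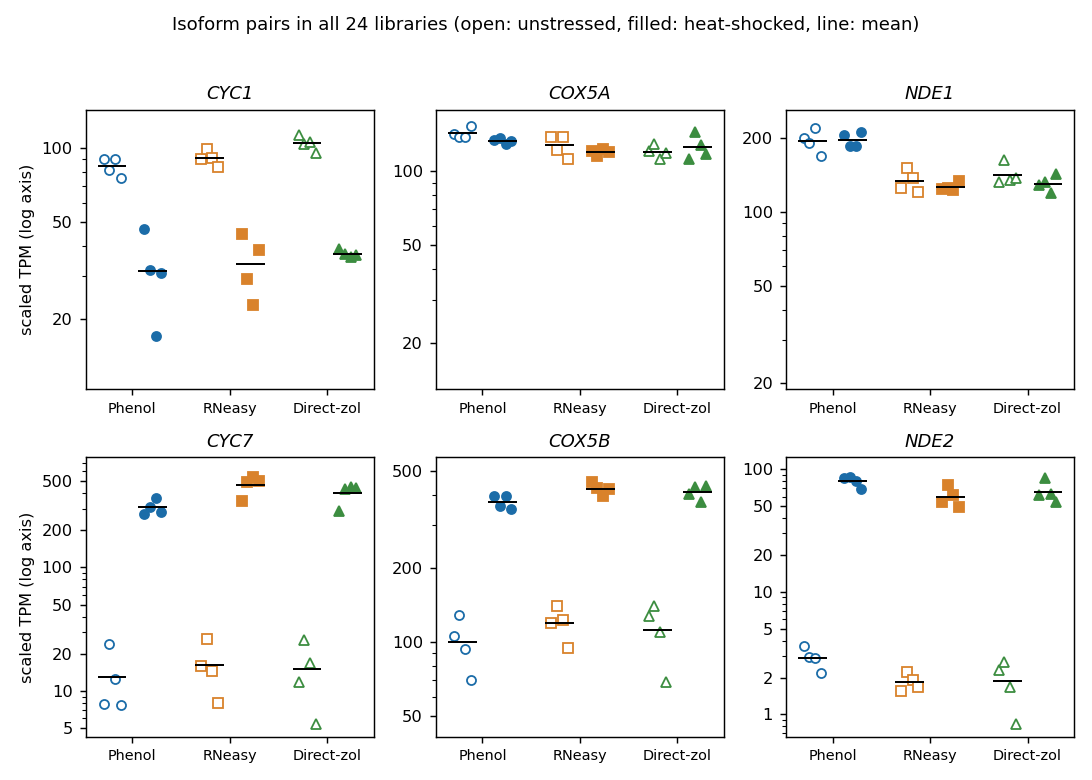
Scaled TPM (log axis) of CYC1, COX5A and NDE1 (upper row) and of CYC7, COX5B and NDE2 (lower row) in all 24 libraries, open for unstressed and filled for heat-shocked cells, with a line at the mean of the 4 cultures. CYC7, COX5B and NDE2 rise without overlap, CYC1 falls without overlap, and COX5A and NDE1 overlap between conditions.

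The windows around the start codons of these 3 pairs show which stress motifs the isoforms carry (250 bases before and 50 from the start codon, strand of the gene, S288c genome R64, sequences from RefSeq). Capitals mark the motif CCAAT, the motif AGGGG, the heat shock unit GAANNTTC or the unit TTCNNGAA, and the motif ATTGTT, on either strand, and a stretch of capitals can hold overlapping motifs.
CYC1, chrX:526085-526384, plus strand: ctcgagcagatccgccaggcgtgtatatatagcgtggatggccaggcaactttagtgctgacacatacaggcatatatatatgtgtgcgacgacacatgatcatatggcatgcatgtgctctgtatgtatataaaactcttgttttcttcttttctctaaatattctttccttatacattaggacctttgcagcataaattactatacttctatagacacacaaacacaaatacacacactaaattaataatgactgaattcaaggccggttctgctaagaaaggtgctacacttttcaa
CYC7, chrV:79928-80227, minus strand: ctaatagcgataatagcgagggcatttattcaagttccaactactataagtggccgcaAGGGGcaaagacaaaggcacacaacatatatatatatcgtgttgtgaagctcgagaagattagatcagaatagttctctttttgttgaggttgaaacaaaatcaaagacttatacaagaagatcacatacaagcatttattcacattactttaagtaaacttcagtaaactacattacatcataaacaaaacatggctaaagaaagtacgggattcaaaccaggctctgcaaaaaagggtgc
COX5A, chrXIV:531475-531774, plus strand: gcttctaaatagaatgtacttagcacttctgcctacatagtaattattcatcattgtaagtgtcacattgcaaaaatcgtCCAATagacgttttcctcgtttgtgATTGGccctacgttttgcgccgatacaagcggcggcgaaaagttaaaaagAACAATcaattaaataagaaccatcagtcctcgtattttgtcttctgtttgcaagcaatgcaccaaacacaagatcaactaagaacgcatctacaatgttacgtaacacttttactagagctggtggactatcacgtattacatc
COX5B, chrIX:154972-155271, plus strand: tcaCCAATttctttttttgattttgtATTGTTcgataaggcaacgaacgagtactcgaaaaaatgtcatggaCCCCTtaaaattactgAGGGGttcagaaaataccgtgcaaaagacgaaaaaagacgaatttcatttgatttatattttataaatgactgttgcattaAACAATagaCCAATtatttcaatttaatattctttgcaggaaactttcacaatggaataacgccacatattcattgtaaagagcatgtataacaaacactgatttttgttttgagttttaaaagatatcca
NDE1, chrXIII:556426-556725, minus strand: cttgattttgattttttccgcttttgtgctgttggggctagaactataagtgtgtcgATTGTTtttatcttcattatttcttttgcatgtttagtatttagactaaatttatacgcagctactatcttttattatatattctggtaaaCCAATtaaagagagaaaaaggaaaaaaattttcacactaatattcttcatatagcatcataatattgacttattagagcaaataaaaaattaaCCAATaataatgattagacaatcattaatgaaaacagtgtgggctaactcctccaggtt
NDE2, chrIV:302961-303260, plus strand: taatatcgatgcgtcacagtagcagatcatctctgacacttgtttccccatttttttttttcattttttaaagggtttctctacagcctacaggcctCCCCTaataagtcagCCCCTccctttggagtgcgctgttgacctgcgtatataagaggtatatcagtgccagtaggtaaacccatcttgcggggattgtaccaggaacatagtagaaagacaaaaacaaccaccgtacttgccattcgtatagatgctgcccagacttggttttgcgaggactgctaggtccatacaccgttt

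CCAAT is the core bound by the Hap2/3/4/5 activator of respiratory genes, AGGGG the core of the stress response element bound by Msn2 and Msn4, GAANNTTC and TTCNNGAA are units of the heat shock element bound by Hsf1, and ATTGTT is the core of the site of Rox1, a repressor of low-oxygen genes. CYC7 held AGGGG once, starting 192 bases before the start codon, COX5B at 2 places (178 bases before, as CCCCT on the opposite strand, and 162 bases before) and NDE2 at 2 places (153 and 138 bases before, both on the opposite strand as CCCCT). The windows of CYC1, COX5A and NDE1 held none. None of these 6 windows held a heat shock element unit. COX5A, COX5B and NDE1 each held CCAAT at 2 places, and CYC1, CYC7 and NDE2 held none. ATTGTT was likewise in the windows of COX5A, COX5B and NDE1 and not in those of CYC1, CYC7 and NDE2. For COX5B the bases after the first one of the start codon belong to the annotated intron. The ADP/ATP carriers, not printed here, did not follow the same pattern of AGGGG. The window of PET9, not called after heat shock, held it once (93 bases before, as CCCCT on the opposite strand). The windows of AAC1, which rose, and AAC3 held none.

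Over all members, CCAAT was in 30 of 39 windows (76.9%), against 43.3% of 6007 windows of annotated genes. AGGGG was in 17 (43.6%, against 21.6%), ATTGTT in 17 (43.6%, against 35.2%) and a heat shock element unit in 7 (17.9%, against 22.6%). With the 600 bases before the start codon instead, a window chosen after seeing the data, AGGGG was in 43.6% of members against 39.7% of genes and CCAAT in 92.3% against 70.3%. CCAAT was in 11 of 12 ATP synthase windows, 7 of 9 of complex III and 8 of 9 of complex IV. Of the 17 members with AGGGG, 7 were called higher with all 3 methods (41.2%) and none lower, and of the 22 without it 8 (36.4%) and 2. Over all tested genes 47.6% of those with AGGGG and 23.6% of those without it were called higher with all 3 methods. For CCAAT these shares were 36.7% of 30 members with it and 44.4% of 9 without it, and 29.4% and 28.4% over all genes. These matches are descriptions of letters and not sites of binding.

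The ADP/ATP carriers differed in level and direction. PET9 (YBL030C, also called AAC2), the main carrier, was not called with any method after heat shock. In Phenol libraries it measured 465, 433, 511 and 391 scaled TPM before and 499, 433, 442 and 484 after heat shock. In RNeasy libraries the unstressed values were 193, 278, 212 and 195 and the heat-shocked values 209.5, 222, 161 and 172. Direct-zol libraries gave 323, 405, 288.3 and 335 unstressed and 316, 312, 239 and 287.8 heat-shocked. The conditions overlapped within each method, and within heat-shocked cells the Phenol values were highest and the RNeasy values lowest, without overlap. The heat changes were 0.05 ± 0.12, -0.20 ± 0.12 and -0.22 ± 0.12. AAC1 (YMR056C), a minor form of aerobic cells, rose.

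AAC1 measured 10.7, 10.9, 11.6 and 12.6 scaled TPM in unstressed and 19.8, 19.4, 23.9 and 20.5 in heat-shocked Phenol libraries. With RNeasy the values were 7.86, 7.02, 6.003 and 5.63 and then 14.3, 18.2, 11.8 and 11.6. With Direct-zol they were 5.55, 5.38, 4.56 and 8.81 and then 11.04, 16.9, 14.0 and 14.0. Within each method the conditions did not overlap, though they did between methods. AAC1 changed by 0.81 ± 0.16, 0.96 ± 0.16 and 1.104 ± 0.16 (limma adjusted p 5.1e-06 to 1.7e-04). AAC3 (YBR085W), known as the carrier of anaerobic growth, had negative estimates.

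AAC3 measured 10.6, 13.8, 12.9 and 10.2 scaled TPM in unstressed and 10.9, 5.41, 5.07 and 8.09 in heat-shocked Phenol libraries. With RNeasy the values were 9.03, 9.12, 9.28 and 9.21 and then 8.11, 5.96, 5.44 and 6.59. With Direct-zol they were 10.7, 10.5, 9.91 and 15.6 and then 8.12, 7.54, 5.55 and 6.10. Phenol culture 1 did not fall, and the RNeasy and Direct-zol values did not overlap between conditions. The changes were -0.67 ± 0.17, -0.45 ± 0.17 and -0.69 ± 0.17, called with Phenol and Direct-zol (limma adjusted p = 0.00186 and 0.00145) and not with RNeasy (0.0269). The calls of AAC3 were lost without culture 2 or 3 (Phenol), without culture 4 (Direct-zol), with only the compared groups in the fit and with TPM as deposited, where the changes were -0.48 and -0.42. MIR1 (YJR077C), the phosphate carrier, changed by -0.17 ± 0.11, -0.31 ± 0.11 and -0.30 ± 0.11 and was called with none. AAC3 shares 90.2% of aligned residues with PET9, and AAC1 78.2%, yet no member shared a 50-base stretch, the read length, with another coding sequence.

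**Figure D3:**
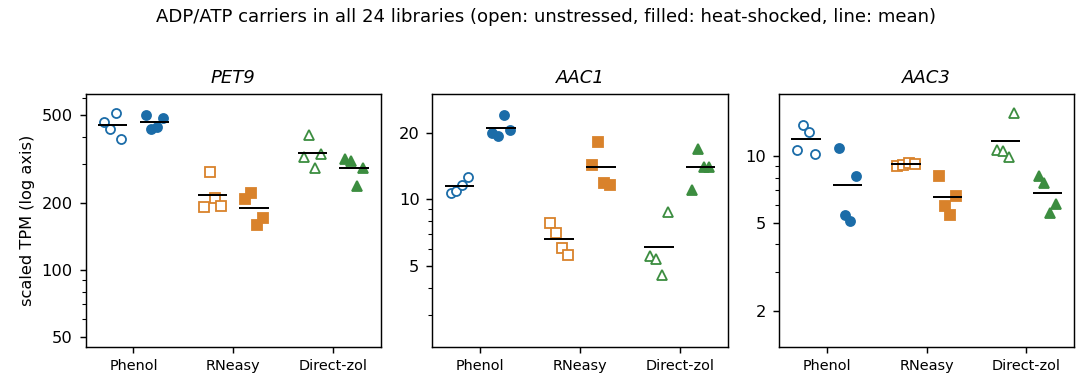
Scaled TPM (log axis) of the ADP/ATP carriers PET9, AAC1 and AAC3 in all 24 libraries, open for unstressed and filled for heat-shocked cells, with a line at the mean of 4 cultures. AAC1 rises within each method, AAC3 lies lower after heat shock in most cultures, and PET9 differs by method more than by heat.

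Isoform ratios were compared between unstressed and heat-shocked cultures on the mean of the 3 methods, with an exact two-sided permutation test of 4 against 4 cultures and a threshold of 0.05. The log2 ratio of CYC7 to CYC1 rose by 6.21 (SD over cultures 0.73), that of NDE2 to NDE1 by 4.47 (0.21) and that of COX5B to COX5A by 1.93 (0.36). AAC1 rose relative to PET9 by 1.06 (0.36). The ratio of AAC3 to PET9 changed by -0.50 (0.18) and that of AAC3 to AAC1 by -1.56 (0.46). All 6 pairs gave an exact permutation p of 0.0286, the smallest that 70 regroupings allow, and 0.0286 after Benjamini-Hochberg adjustment over the 6, so the p does not rank them. The test does not use the pairing, although the same 4 cultures were sampled before and after heat shock. It was chosen because sign flips of the 4 paired cultures cannot go below 0.125. The proteins of these pairs are 84.4% (CYC7 and CYC1), 65.3% (COX5B and COX5A) and 59.4% (NDE2 and NDE1) identical over aligned residues, computed from the coding sequences.

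Other genes of respiration were taken from lists chosen by function. Their counts stand beside 31.1% to 31.7% of all transcripts called higher and 32.1% to 32.8% lower, and within a list the highest and lowest gene are those on the mean of the 3 methods. The 4 nuclear subunits listed of complex II (succinate dehydrogenase) were called higher with each method. SDH1 was highest (1.40, 1.33 and 1.31) and SDH3 lowest (0.88, 0.60 and 0.60). Of 5 further ATP synthase subunits and inhibitors 4 were called higher with each method. STF2 (3.43, 3.50 and 3.42) and STF1 (2.83, 2.91 and 2.85), linked to the ATP synthase inhibitor, and the inhibitor INH1 (1.64, 1.42 and 1.65) rose, and ATP19 (-0.08, 0.17 and 0.31) was not called. Coenzyme Q synthesis had 7 of 9 called higher with each method, with COQ4 highest (1.503, 1.47 and 1.43) and COQ2 lowest (-0.03, -0.03 and -0.04, not called).

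Complex IV assembly factors had 15 of 24 called higher and RCF2 called lower (-0.37, -0.33 and -0.44) with each method, with PET117 highest on that mean (1.36, 1.43 and 1.45). Complex III assembly had 4 of 7 called higher, none lower, with CYC3, the cytochrome c heme lyase, highest (1.14, 1.13 and 1.09) and CBP3 lowest (0.02, -0.11 and -0.01, not called). ATP synthase assembly had 4, 5 and 3 of 7 called higher, with FMC1 highest on that mean (0.67, 0.66 and 0.74) and ATP23 lowest (-0.20, -0.07 and 0.02, not called). Of 11 regulators 5, 7 and 8 were called higher and 2 lower. CAT8, an activator of non-fermentative growth, rose (2.09, 2.29 and 2.18) from a mean of 1.61 TPM, and HXK2, the hexokinase with a part in glucose repression, fell (-1.71, -1.89 and -1.87). HAP3, a subunit of the CCAAT-binding complex, was also called lower (-0.72, -0.64 and -0.62). The transcripts of its other subunits went the other way. HAP2 (0.40, 0.45 and 0.53) and HAP5 (0.55, 0.77 and 0.56) were called higher with each method. HAP4 (0.39, 0.68 and 0.46) was called higher with the kits and not with Phenol. The 7 mitochondrially encoded subunits on the lists were not analysed here.

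**Figure D4:**
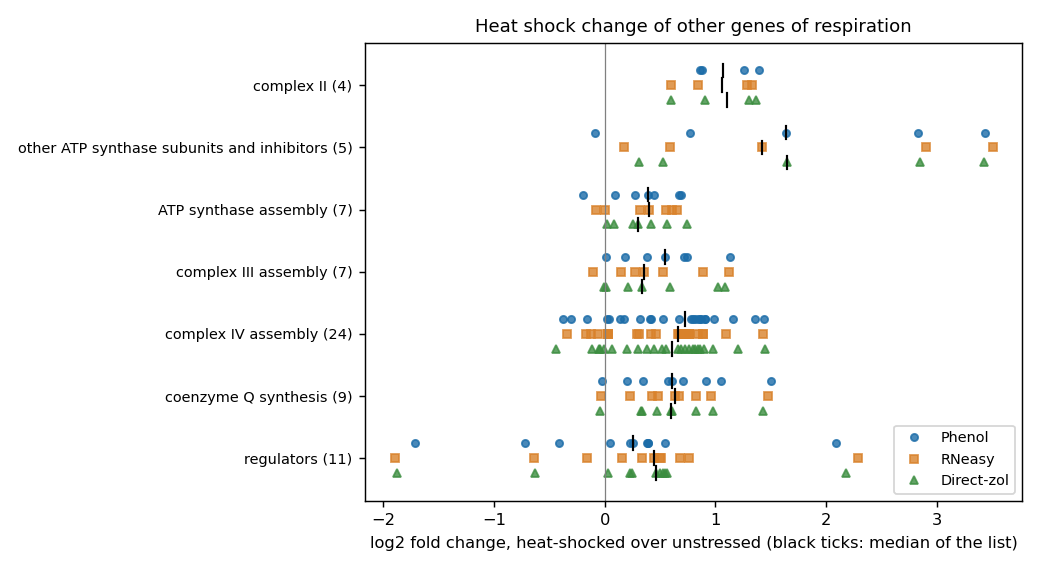
log2 fold change after heat shock (x axis) of each tested gene in 7 lists of other respiratory genes, 1 row of markers per isolation method and a black tick at the median, with the number of genes in parentheses. Complex II lies above 0 throughout, inhibitor-related STF2 and STF1 reach beyond 2.8, and the regulators spread from HXK2 below -1.7 to CAT8 above 2.

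The measured level of many members differed by isolation method, as did that of many transcripts at large. Of all 6137 transcripts, 2568 to 2730 were called in each Phenol comparison. Whether members differed more often than other transcripts was not tested. In unstressed cells 12 members were called higher and 5 lower in Phenol than in RNeasy, where 22.1% and 19.8% of all transcripts were called, and 12 higher and 8 lower than in Direct-zol (22.9% and 21.6%). In heat-shocked cells the counts were 13 and 4 against RNeasy (22.6% and 21.1%) and 10 and 8 against Direct-zol (21.8% and 20.8%). Both Phenol comparisons share the Phenol libraries. The study reports that RNA integrity also differed by method, highest with Phenol and lowest with Direct-zol. With integrity as a factor, it found far fewer transcripts differing between Phenol and Direct-zol, while nearly all of those between Phenol and RNeasy stayed significant. Integrity was not in the fit used here. With TPM as deposited, the medians of all transcripts shifted to -0.28, -0.11, -0.33 and -0.21 in these 4 comparisons, and the members split 7 higher and 13 lower, 11 and 11, 8 and 14, and 7 and 10. Quantile normalization gave 11 and 13 for heat-shocked Phenol against RNeasy and 7 and 8 for unstressed Phenol against Direct-zol. Shares of all transcripts called with these scalings are not given, and whether the splits follow a general shift of calls was not tested.

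Among members above the RNeasy level in Phenol, PET9 and ATP2 led. PET9 was higher in Phenol than in RNeasy by 1.04 ± 0.12 in unstressed and 1.29 ± 0.12 in heat-shocked cells, and than in Direct-zol by 0.42 ± 0.12 and 0.69 ± 0.12. ATP2 was higher by 1.02 ± 0.07 and 1.11 ± 0.07 against RNeasy and by 0.64 ± 0.07 and 0.74 ± 0.07 against Direct-zol. All of these were called (limma adjusted p at most 0.00503), although PET9 against Direct-zol in unstressed cells lost its call without culture 1, 3 or 4. MIR1, COX9 and ATP15 stood 0.85, 0.85 and 0.77 higher in Phenol than in RNeasy in unstressed cells, and AAC1 0.85 higher than in Direct-zol. In the other direction COX12, ATP7 and ATP14 were lower in Phenol than in Direct-zol in unstressed cells (-0.82 ± 0.14, -0.50 ± 0.08 and -0.45 ± 0.09). So were COX6 (-0.48), whose call was lost without culture 1, 2 or 4, and QCR7 (-0.46). In heat-shocked cells QCR6 was lower in Phenol than in Direct-zol (-0.55 ± 0.12), and ATP4 lower in Phenol than in RNeasy (-0.36). ATP synthase held members of both directions, 4 higher and 4 lower in Phenol against each kit in unstressed cells.

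The kits differed from each other in few members. None was higher in RNeasy than in Direct-zol in either condition (2.93% and 3.68% of all transcripts were, in unstressed and heat-shocked cells). PET9 and ATP2 were lower in RNeasy in unstressed cells (-0.63 ± 0.12 and -0.38 ± 0.07, where 0.961% of transcripts were called) and PET9, ATP2 and ATP15 in heat-shocked cells (-0.60 ± 0.12, -0.37 ± 0.07 and -0.45 ± 0.09, where 0.75% were). At an unadjusted p under 0.05 there were 13 and 14 members, and 1514 and 1553 of all 6137 transcripts. No member was called in either condition without culture 1 or without culture 4, and the calls of ATP2 and ATP15 were also lost with TPM as deposited.

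**Figure D5:**
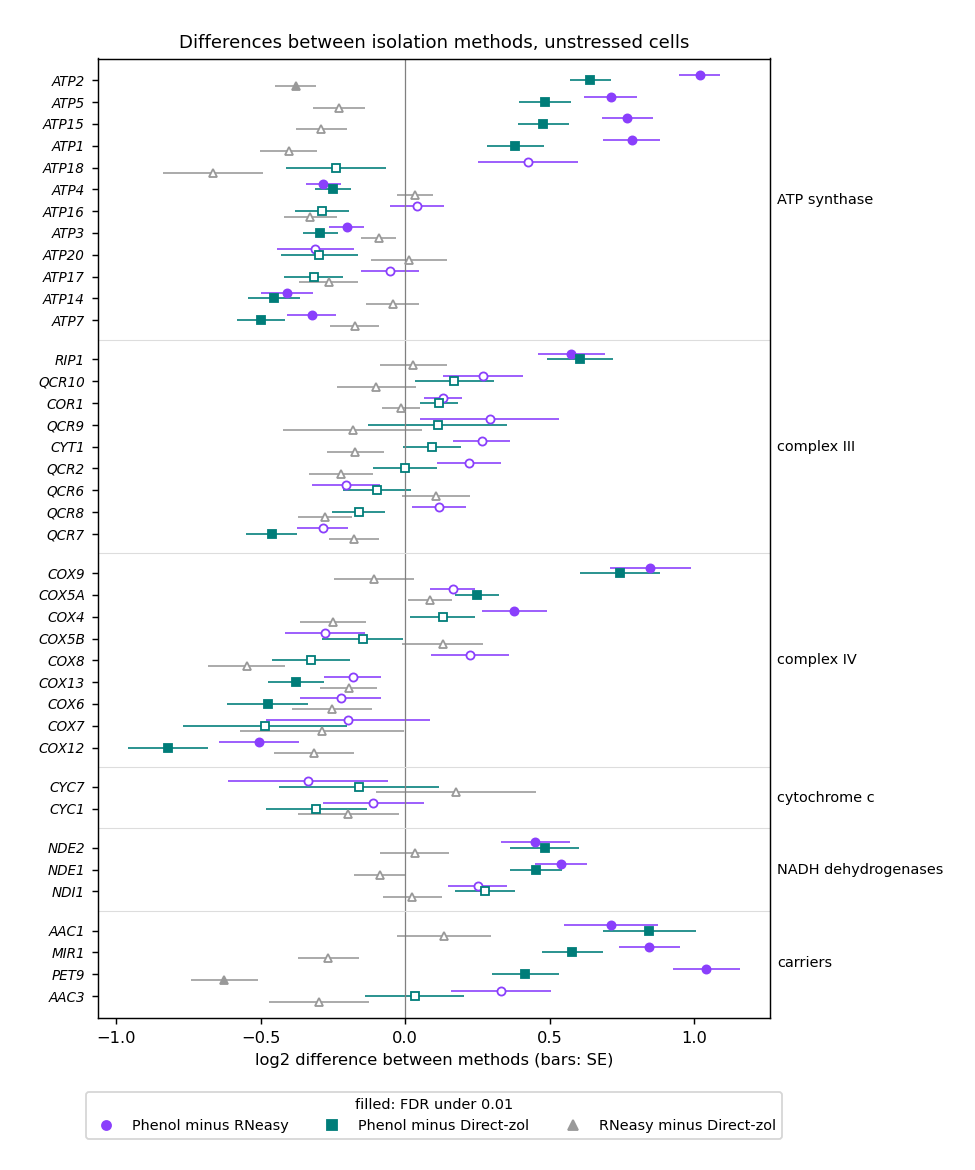
log2 difference between isolation methods in unstressed cells (x axis) for each of the 39 transcripts with the SE as a bar, filled where called at an FDR under 0.01. ATP2, PET9, COX9 and MIR1 lie to the right for Phenol minus RNeasy, COX12 to the left for both Phenol comparisons, and most RNeasy minus Direct-zol points are open.

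Members higher in Phenol than in Direct-zol in unstressed cells had longer coding sequences (median 933 bases for 12) than those lower (median 418.5 for 8) and a median GC content of 43.3% against 40.05%. The 19 members not called had a median of 348 bases, shorter than both, and of 40.5% GC. The same was not computed over all transcripts. Across the 39 members the difference between Phenol and RNeasy in unstressed cells correlated with log2 coding length at Pearson r = 0.343 and Spearman rho = 0.308. With GC content the values were 0.46 and 0.455. These are across genes, which share the libraries and are not replicates, and serve as a description. Against Direct-zol, also in unstressed cells, the values were 0.446 and 0.436 for length and 0.573 and 0.569 for GC. In heat-shocked cells they were 0.326 and 0.331 for length and 0.377 and 0.41 for GC against RNeasy. Against Direct-zol in heat-shocked cells they were 0.346 and 0.33 for length and 0.412 and 0.376 for GC. A hydrophobic stretch of 19 residues (mean Kyte-Doolittle hydropathy of at least 1.6) was found in 9 members. Of these, 1 was higher and 1 lower in Phenol than in RNeasy in unstressed cells.

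The heat response itself was compared between methods through interaction terms. No member was called in any of the 3 comparisons, and of all 6137 transcripts 0% was called in each. At an unadjusted p under 0.05 there were 1, 2 and 0 members (QCR6 for Phenol against RNeasy, QCR6 and COX8 for Phenol against Direct-zol) and 267, 270 and 69 transcripts in all. The members' differences in response ran from -0.41 to 0.30, -0.45 to 0.45 and -0.16 to 0.29 on the log2 scale. A missed threshold does not show that the responses were equal.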

How the data were processed

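Polyadenylated RNA from 24 samples was sequenced in 1 lane with single-end reads of 50 bases. Per the labels and the study's methods, the authors trimmed reads with Trimmomatic, aligned them with STAR and estimated transcript abundance (TPM) with RSEM, and deposited TPM for 6685 transcripts. The strand setting of the counting was not given in the sources used here. TPM sum to the same total in every library, so depth is not kept in them and a rise in some transcripts lowers the share of others. A further deposited table holds fold changes and p-values of the authors' own edgeR comparisons and was not used.

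Library factors from trimmed log ratios scaled the TPM (30% of ratios and 5% of abundances trimmed at each end), and log2(scaled TPM + 1) was fitted with limma 3.58.1 in R 4.3.3 (6 sample types, biological replicate as a block, empirical Bayes with trend). Transcripts with a mean of at least 1 TPM in at least 1 group were tested (6137), with Benjamini-Hochberg adjustment over all of them and a call at an FDR of 0.01. The fit was tested on simulated data. The pairing by replicate number comes from the study's methods, in which the samples of 1 number are the same culture. Deviations from the group means correlated at a mean r of 0.19 between samples of the same number and treatment (24 pairs, -0.31 to 0.59), 0.0066 between treatments (36 pairs) and -0.06 between different numbers of the same treatment (72 pairs). Sequence features came from the RefSeq annotation of R64 with Biopython 1.88, which matched 6006 transcripts and gives coding parts only.

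Members and lists were chosen with earlier results of these data known. In full were described the cytochromes c, NADH dehydrogenases, carriers, COX5A and COX5B. In the other complexes the most abundant member, the 2 highest and the 2 lowest by mean heat change were named, together with members called between RNeasy and Direct-zol or in an interaction, the 3 highest and 3 lowest called in each Phenol comparison, and the extremes of each list. RIP1, CYT1, QCR2, QCR9, ATP1, COX8, STF1, INH1, HAP2, HAP3, HAP4 and HAP5 were named after their values were seen. Alternatives were other scalings, pseudocounts, filters, blocks, thresholds and sets of libraries.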

Additional observations from a re-analysis of the deposited data

Results flagged for a closer look

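In 6 of 180 groups of 4 libraries, for the 30 members named by rule, the lowest or highest library stood apart by more than Dixon's 95% critical value for 4 samples (gap to the nearest value divided by the range). Chance flags about 1 in 20 groups. CYC7 in Direct-zol heat-shocked replicate 1 was low at 286 scaled TPM, against 435 to 450.02 in the other 3 (0.924). COX7 in Direct-zol heat-shocked replicate 2 was low at 95.7, against 166 to 177 (0.891). COX9 in RNeasy unstressed replicate 4 was high at 149, against 102 to 105 (0.93). AAC3 in Direct-zol unstressed replicate 4 was high at 15.6, against 9.91 to 10.7 (0.841), and the Direct-zol call of AAC3 was lost without that culture. ATP20 in Direct-zol unstressed replicate 2 was low at 103.7, against 126 to 131 (0.837), and QCR10 in RNeasy unstressed replicate 4 was low at 71.3, against 82.1 to 84.5 (0.834).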

How the results depend on the processing

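Without the replicate block, 23, 22 and 21 members were called after heat shock with Phenol, RNeasy and Direct-zol, and 15, 18 and 2 (unstressed) and 15, 17 and 3 (heat-shocked) between methods. A replicate block within treatment gave 23, 22 and 21 after heat shock, without losing a call there. With only the sample types compared in the fit, 15 members were called after heat shock with Phenol, 11 for unstressed Phenol against RNeasy and 13 for unstressed Phenol against Direct-zol. This fit holds fewer libraries. Between RNeasy and Direct-zol, TPM as deposited and quantile normalization each gave 1 member in either condition, and an FDR of 0.05 gave 7 in either. Leaving out 1 culture gave 0 to 2 members there in both conditions, and 11 to 15 for heat-shocked Phenol against RNeasy, lowest without replicate 4. With RNeasy alone the log2 ratio of AAC3 to PET9 changed by -0.28 (exact permutation, adjusted p = 0.143), and the other pairs stayed under 0.05 with each method. No single gene's fold change reversed among the 115 called results followed through these settings, but the split of members did for Phenol against RNeasy, from 12 higher and 5 lower to 7 and 13 (unstressed) and from 13 and 4 to 8 and 14 (heat-shocked) with TPM as deposited, and to 11 and 13 (heat-shocked) with quantile normalization. Of the 115, 19 lost their call with TPM as deposited, 25 with only the types compared, 6 without the block and 16 to 29 without 1 culture. The counts of members in this section stand without the share of all transcripts called under each setting. Counting error was not computed, since TPM keep no depth.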
